A study of Rattus norvegicus with 24 samples.

Results

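Infarcted rat left ventricle that carried a microneedle patch was compared with infarcted left ventricle without a patch, with 6 RNA-seq libraries on each side. These 12 libraries were chosen from the 24 of the study by the treatment in their labels. All came from Sprague Dawley rats, an outbred laboratory strain, and were taken at day 7 after infarction and patch implantation. In the group MI the heart had an infarct and no patch. In the group Microneedle patch the infarct was covered by a patch that fastens itself to the tissue with small interlocking needles. The other 12 libraries, 6 of Sham hearts and 6 of infarcts with a patch held by sutures (Sutured patch), served here to give levels only. The labels give neither age nor sex, nor what the patch was made of. Nor do they say whether every library stands for another animal, and p-values therefore reflect differences between libraries, which may be technical.

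A myocardial infarct is heart muscle that has died after its blood supply was cut off. In rodents the dead muscle is cleared by inflammatory cells in the first days and is then replaced by fibroblasts and their matrix, so tissue from the infarct region holds surviving muscle, invading cells and young scar in varying proportions. In the uninjured ventricle, transcripts of contraction and of mitochondrial energy supply are among the most abundant. In bulk tissue, fewer cells of a type and less RNA per cell cannot be told apart. The table gives Ensembl gene IDs without symbols, and 0 of its 32883 IDs could be paired with a symbol here. The labelled tissue could therefore not be checked against its marker genes, and genes are described by how abundant their reads were.

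The libraries were of similar depth, with 12864218 to 13974505 counts in MI and 13590783 to 14552623 in the microneedle patch group. At these depths 3 counts correspond to between 0.206 and 0.233 CPM, the number of reads of a gene relative to the scaled total of its library. The groups were unequal in spread. The biological coefficient of variation was 20.4% within MI and 32.1% within the microneedle patch group. On the first principal component of the log2 CPM values, which held 53.6% of the variance, the MI libraries lay between -64.9 and -24.5 and the microneedle patch libraries between 2.54 and 87.4. The groups did not overlap on this axis. The microneedle patch libraries lay apart from each other on the second component, which held 16.2%. Replicates 3, 4 and 5 had scores of 40.2, 39.8 and 43.7 there, whereas replicates 1, 2 and 6 had scores of -19.2, -33.3 and -14.2 and the MI libraries lay between -30.4 and 11.1. Replicates 3, 4 and 5 were also the microneedle patch libraries closest to MI on the first component, with scores of 28.0, 11.4 and 2.54.

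**Figure D1:**
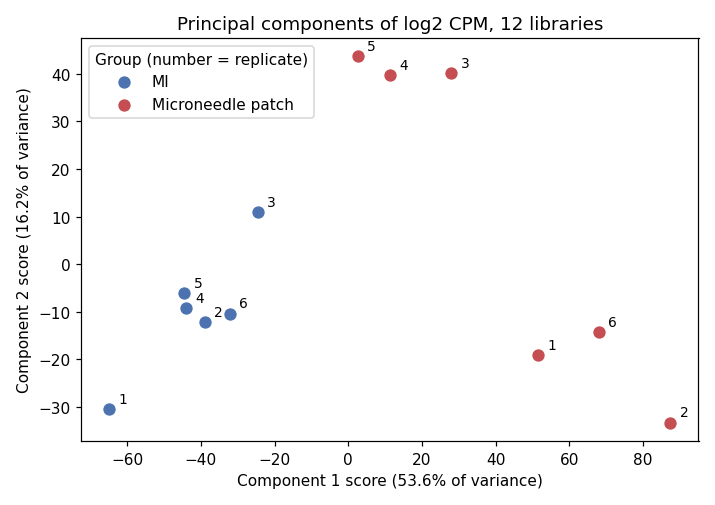
Scores of the 12 libraries on the first and second principal components of log2 CPM (x and y axes, in component units, with the share of variance in percent). Each point is 1 library, coloured by group and marked with its replicate number. The groups do not overlap on the first component, and microneedle patch replicates 3, 4 and 5 lie between 39.8 and 43.7 on the second.

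With the microneedle patch 2496 genes were higher and 2097 were lower than in MI, of 13934 genes tested (edgeR quasi-likelihood test of the 2 groups alone, Benjamini-Hochberg adjusted p below 0.05). This is 33% of the genes tested, 17.9% higher and 15% lower. The genes that fell did so more steeply than the others rose. The median log2 fold change was -0.88 among the genes that fell and 0.58 among those that rose, and a change of 4-fold or more was reached by 300 falls and 72 rises. A change of 2-fold or more was called for 1321 genes (9.48% of the genes tested), 885 of them lower (6.35%) and 436 higher (3.13%). Most rises were small: 1271 of the 2496 genes that rose, 50.9%, did so by less than 1.5-fold, against 541 of those that fell (25.8%). In 1148 of the genes called lower (54.7%) every microneedle patch library was below every MI library. In 957 of the genes called higher (38.3%) every one was above. These genes were called from the same libraries, which favours such separation. Over all genes tested, with or without a call, such a separation was seen downwards for 8.38% and upwards for 6.98%. The number of calls depended on which microneedle patch libraries were used. Without replicates 3, 4 and 5, which lay apart on the second component, 3952 genes were higher and 4166 lower, and without replicates 1, 2 and 6 the numbers were 1427 and 1819. Both alternatives were chosen after seeing the data and used 3 libraries fewer. Replicates 3, 4 and 5 were also the closest to MI on the first component, so the choice itself favoured more calls without them.

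Genes were then sorted by abundance, as the mean CPM over the 12 libraries. CPM is not corrected for gene length, so a class holds genes with similar numbers of reads and not necessarily of molecules. The class from 10 to 100 CPM was the largest, with 7857 genes, followed by 3806 genes from 1 to 10 CPM, 1843 from 100 to 1000 CPM, 347 under 1 CPM and 81 of at least 1000 CPM. The share of genes called was lowest among the rarest, 13.8% under 1 CPM, and was 27.3% from 1 to 10 CPM and 33.8% from 10 to 100 CPM. It was 44.5% from 100 to 1000 CPM and 38.3% in the 81 most abundant genes. Precision changed along the same scale. The median standard error of the log2 fold change was 0.42 under 1 CPM, 0.29 from 1 to 10 CPM, 0.14 from 10 to 100 CPM, 0.13 from 100 to 1000 CPM and 0.16 above. A gene under 1 CPM was called higher only from a log2 fold change of 0.80 upwards, and one from 10 to 100 CPM already at 0.19.

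The balance between rises and falls differed from class to class. From 1 to 10 CPM falls outnumbered rises, with 603 genes lower (15.8% of the class) and 437 higher (11.5%). The share lower was near the 15% of all genes tested, and the share higher was below their 17.9%. From 10 to 100 CPM 1537 genes were higher (19.6%) and 1116 lower (14.2%), shares close to the 17.9% and 15% of all genes tested, and with limma-voom the numbers were nearly even, at 1484 and 1423. Rises also led from 100 to 1000 CPM, with 486 genes higher (26.4%) and 335 lower (18.2%). Among the 81 genes of at least 1000 CPM 17 were higher (21.0%) and 14 lower (17.3%), shares not far from those of all genes tested. Among the 347 genes under 1 CPM 19 were higher (5.48%) and 29 lower (8.36%), both below the shares of all genes tested. In every class the median fall was steeper than the median rise except under 1 CPM, where rises had a median log2 fold change of 1.72 and falls of -1.56. Under 1 CPM only rises from 0.80 upwards and falls from -0.84 downwards were called. Genes this rare can also pass the count filter through their higher group alone. That exception therefore cannot be read as a difference between the classes. The median fall was -1.28 from 1 to 10 CPM, -0.73 from 10 to 100 CPM, -0.72 from 100 to 1000 CPM and -1.05 in the most abundant class. The corresponding median rises were 0.96, 0.53, 0.53 and 0.72.

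**Figure D2:**
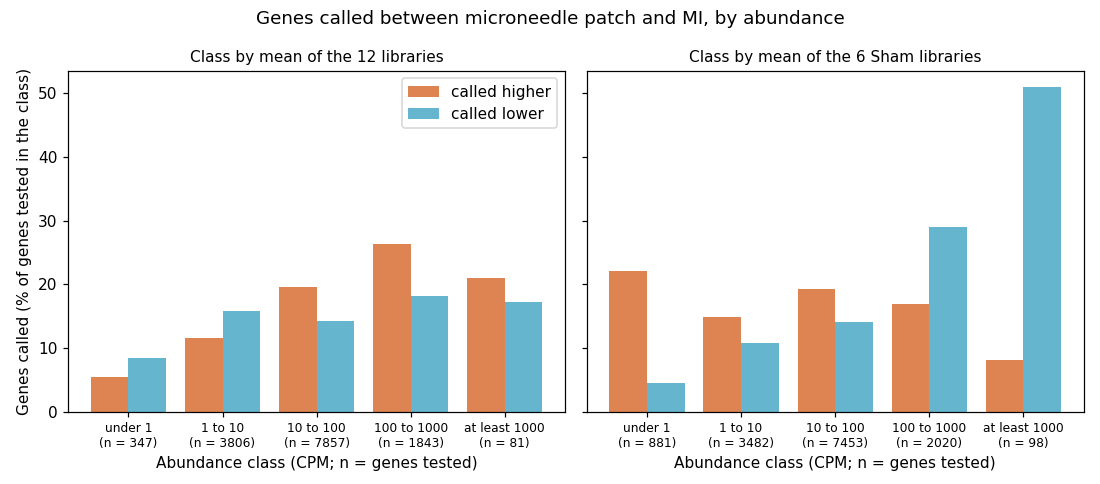
Genes called higher or lower with the microneedle patch than in MI, in percent of the genes tested in each class (y axis), by abundance class in CPM (x axis), with classes by the mean of the 12 compared libraries at left and by the mean of the 6 Sham libraries at right. At right the share called lower climbs from 4.43% under 1 CPM to 51.0% at 1000 CPM and more, while the share called higher goes from 22.1% to 8.16%.

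Changes of 4-fold or more were called for 372 genes, 2.67% of the genes tested. From 1 to 10 CPM they were 5.15% of the class, with 144 falls and 52 rises, and under 1 CPM they were 4.32%, with 10 falls and 5 rises. From 10 to 100 CPM they were 1.62%, with 116 falls and 11 rises, and from 100 to 1000 CPM they were 1.68%, with 27 falls and 4 rises. In the most abundant class 3 of 81 genes (3.70%) fell at least 4-fold and 0 rose as much. Reads were divided over the classes in another way. The genes from 1 to 10 CPM, although 1040 were called, accounted for 1.47% of the reads gained by all genes called higher and 2.57% of those lost by all genes called lower. The genes from 100 to 1000 CPM accounted for 52.6% of the reads gained and 52.9% of the reads lost. The 31 called genes of at least 1000 CPM accounted for 21.9% of the gain and 17.3% of the loss. In sum the genes called higher gained 101738 CPM and those called lower fell by 91240 CPM. Among the former 128 genes made up 50% of the gain, and among the latter 95 genes made up 50% of the loss.

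Many called genes moved from one class to another when each group was classed by its own mean. At the boundary of 1 CPM 101 genes rose above it and 176 fell below it, and at 10 CPM 233 rose above and 324 fell below. At the higher boundaries slightly more called genes rose than fell, as among all calls, of which 2496 were higher and 2097 lower. At 100 CPM 217 genes rose above and 201 fell below, and at 1000 CPM 23 rose above and 19 fell below. Over all tested genes, called or not, 1915 were at or above 100 CPM in MI and 1906 with the microneedle patch. At or above 1000 CPM the numbers were 79 and 92. They were 13527 and 13423 for 1 CPM, and 9741 and 9631 for 10 CPM. Genes that were switched on or off outright were rare. A single tested gene had at most 3 counts over the 6 MI libraries and a mean of at least 1 CPM with the microneedle patch, and 0 tested genes showed the reverse. Over all genes of the table, also those too low to be tested, the numbers were 8 and 2.

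With all 12 libraries, no abundance class differed in its share of the reads by the adjusted test. Genes of at least 1000 CPM held 24.1% ± 2.03 of all counts in MI (SD, n = 6) and 24.9% ± 0.653 in the patch group (SD, n = 6). The difference of 0.847 percentage points was within the spread of the MI libraries (exact two-sided permutation test, p = 0.37, adjusted p = 0.547 over 5 classes). It was 0.202 without MI replicate 1 and at most 1.27 without any other library. Genes from 1 to 10 CPM held 1.79% ± 0.13 in MI and 1.63% ± 0.067 with the patch, with 5 of 6 patch libraries below every MI library. That difference did not pass the adjustment (exact permutation p = 0.0152, adjusted p = 0.0758), although it did without microneedle patch replicate 5 (adjusted p = 0.0433). The adjusted p-values of the other classes in the same exact permutation tests were 0.487 and more. The top 10 genes of a library took up 12.3% ± 1.75 of its counts in MI and 12.96% ± 0.323 with the patch (SD, n = 6 each, exact permutation p = 0.37). In the Sham libraries the top 10 took up less, between 5.61% and 8.68%. Genes with 1 count or more numbered 17238 ± 107 in MI and 17155 ± 173 with the patch (SD, n = 6 each; exact permutation p = 0.361).

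**Figure D3:**
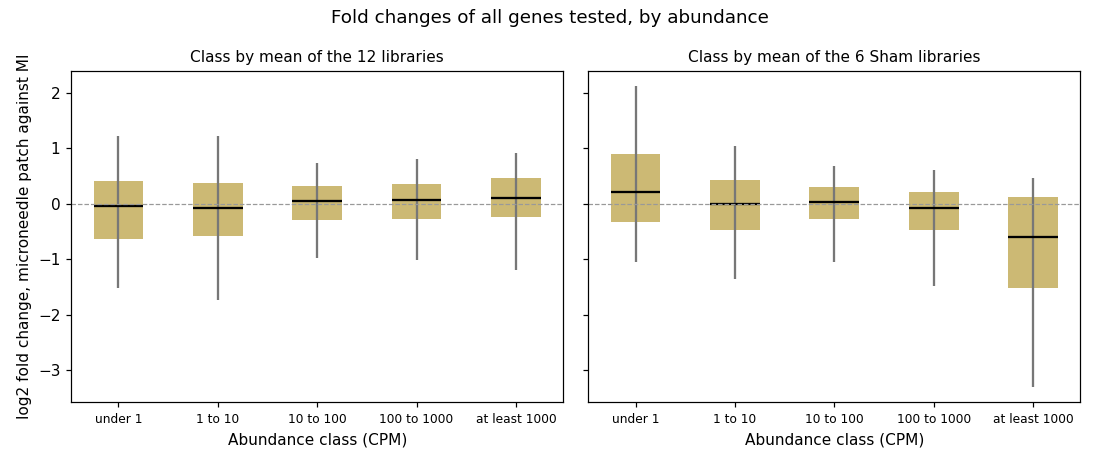
Log2 fold change between the microneedle patch and MI (y axis) of all genes tested in each abundance class (x axis, CPM), by the mean of the 12 libraries at left and of the 6 Sham libraries at right. Black lines are medians, boxes span the 25th to 75th and thin lines the 5th to 95th percentile of genes. The medians at left lie between -0.07 and 0.10, and at right the class of at least 1000 CPM has a median of -0.60.

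A much clearer pattern appeared when the same genes were classed by their level in Sham ventricle, in libraries that took no part in the comparison. Of the 98 genes with at least 1000 CPM in Sham, 50 were lower with the microneedle patch than in MI and 8 were higher. The share called lower was thus 51.0%, against 15% of all genes tested, and the share called higher was 8.16%, against 17.9%. Over all 98 genes the log2 fold change had a median of -0.60, beside 0.02 over all 13934 genes. In 39 of the 98 genes every microneedle patch library was below every MI library, and in 4 every one was above. These are 39.8% and 4.08% of the class, beside 8.38% and 6.98% of all genes tested. Of the 50 genes that fell, 38 did so at least 2-fold and 20 at least 4-fold, whereas 0 of the 8 that rose reached 2-fold. The genes that fell were no uniform block, as their log2 fold changes ran from -5.05 to -0.49. The number lower was between 48 and 51 with any 1 of the 12 libraries left out. It was 46 without microneedle patch replicates 3, 4 and 5, and 55 without replicates 1, 2 and 6, sets chosen after seeing these data. The number higher was less steady and was 13 without microneedle patch replicate 4 or without replicate 5.

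The share of reads held by these 98 genes differed between the groups as well. It lay between 17.5% and 19.4% in the MI libraries, with a median of 18.3%, and between 15.4% and 17.6% in the microneedle patch libraries, with a median of 16.4%. Of the 6 patch libraries 5 were below every MI library. The mean difference of -1.93 percentage points was larger in size than the SD of either group (18.3% ± 0.754 in MI and 16.4% ± 0.865 with the patch, SD, n = 6 each). It passed the exact two-sided permutation test (p = 0.00433, adjusted p = 0.0108 over 5 classes). In Sham itself, where they were selected for their level, these genes held between 18.3% and 24.1%, and with the sutured patch they held between 15.1% and 18.3%. The 50 genes called lower among them fell by 26186 CPM in sum, which was 28.7% of the reads lost by all genes called lower, and the 8 that rose gained 7581 CPM. By the mean of the 12 compared libraries, 64 of the 98 genes stood between 100 and 1000 CPM and 33 at 1000 CPM or more.

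**Figure D4:**
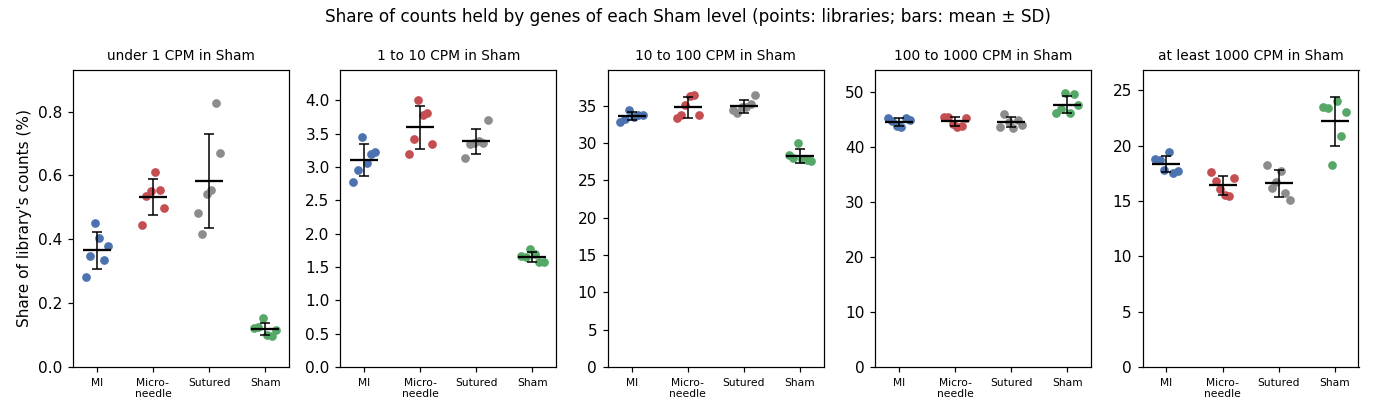
Share of each library's counts, in percent (y axes, each from 0), held by the genes of each Sham level (panels), for the groups MI, microneedle patch, sutured patch and Sham (x axes). Points are libraries and bars are mean ± SD with n = 6; Sham libraries set the classes. In the panel of at least 1000 CPM the microneedle patch libraries lie between 15.4% and 17.6% and the MI libraries between 17.5% and 19.4%.

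The next class down showed the same lean in its calls, to a lesser degree, but not in its reads. Of 2020 genes with 100 to 1000 CPM in Sham, 586 were lower (29.0%) and 343 higher (16.98%), and the median log2 fold change was -0.08. The difference in their share of counts did not pass the test, with 44.6% ± 0.707 in MI and 44.7% ± 0.845 with the patch (SD, n = 6 each, exact permutation p = 0.883). In sum the 586 genes called lower fell by 46171 CPM and the 343 called higher gained 49093 CPM. Leaving out MI replicate 1 brought the number higher to 224, and leaving out microneedle patch replicate 6 brought it to 221. From 10 to 100 CPM in Sham 1433 of 7453 genes were higher (19.2%) and 1047 lower (14.05%), shares near the 17.9% and 15% of all genes tested. They took up 33.6% ± 0.562 of the reads in MI and 34.8% ± 1.37 with the patch, a difference that did not pass the test with all libraries (exact permutation adjusted p = 0.106) but did without microneedle patch replicate 1 (adjusted p = 0.0433).

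Genes that were rare in Sham leaned the other way, and few of them fell. Of the 881 tested genes under 1 CPM in Sham, 195 were higher (22.1%, beside 17.9% of all genes tested) and 39 lower (4.43%, beside 15%), and without microneedle patch replicate 6 the number lower was 24. The median log2 fold change of the 881 genes was 0.22. Of the 195 genes that rose 158 did so at least 2-fold (81.0%), as did 29 of the 39 that fell (74.4%). Small changes could hardly be called in this class, which favours such shares. Its median standard error was 0.39, beside 0.17 over all genes tested. The smallest rise called was 0.54 and the smallest fall -0.80 on the log2 scale. A rare gene can also pass the count filter through its higher group alone. All genes under 1 CPM in Sham together held between 0.282% and 0.45% of counts in the MI libraries, with a median of 0.363%, and between 0.445% and 0.61% with the microneedle patch, with a median of 0.543%. Again 5 of 6 patch libraries were beyond every MI library, this time above. The difference of 0.166 percentage points was larger than the SD of either group (0.366% ± 0.058 in MI and 0.532% ± 0.0559 with the patch, SD, n = 6 each). It passed the exact two-sided permutation test (p = 0.00433, adjusted p = 0.0108). These genes held 0.119% ± 0.0203 of the reads in Sham (SD, n = 6) and 0.582% ± 0.146 in the sutured patch libraries (SD, n = 6).

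Between these ends, 517 of the 3482 genes from 1 to 10 CPM in Sham were higher (14.8%) and 375 lower (10.8%), with a median log2 fold change of -0.01. Their share of counts was 3.10% ± 0.234 in MI and 3.59% ± 0.318 with the patch (SD, n = 6 each, exact permutation p = 0.0216, adjusted p = 0.0361). That call depended on single libraries. The difference did not pass the adjustment without any 1 of MI replicates 1, 2, 4, 5 and 6 or microneedle patch replicates 3, 4 and 5, with adjusted p-values from the exact permutation test of 0.0505 to 0.0722. Every Sham library was shallower than the libraries compared here, which makes the low Sham levels the least certain. With the Sham level taken without Sham replicates 4 and 5, the libraries with the fewest detected genes, 52 genes of at least 1000 CPM were lower and 5 higher, and the shares at both ends differed as before (-2.04 and 0.159 percentage points, exact permutation adjusted p = 0.0108 for each).

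Because the IDs carry no names, 4 of them are given as examples, the 2 called genes in each direction whose mean CPM differed most between the groups. The largest gain was that of ENSRNOG00000018454, which rose by a modest factor from a high level. Its MI libraries ranged from 3175 to 6248 CPM, with a median of 4925, and its microneedle patch libraries from 5825 to 13399 CPM, with a median of 8163. The groups overlapped slightly. The log2 fold change was 0.88 (SE 0.22, edgeR adjusted p = 0.0102), or 1.84-fold, and 572 of the genes called higher had a steeper rise. In the fit of all 24 libraries the ENSRNOG00000018454 rise missed the threshold (edgeR adjusted p = 0.0617), as it did without microneedle patch replicates 1, 2 and 6 (log2 fold change 0.72, adjusted p = 0.0591). Its Sham libraries lay far below, between 146 and 520 CPM, and its sutured patch libraries between 1837 and 8386 CPM.

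ENSRNOG00000020843 was the other large gain, and here the groups were fully separated. It ranged from 808 to 1945 CPM in MI, with a median of 1273, and from 3406 to 7330 CPM with the microneedle patch, with a median of 4738. The log2 fold change was 1.87 (SE 0.23, edgeR adjusted p = 0.000166). Sham libraries held ENSRNOG00000020843 at 270 to 740 CPM and sutured patch libraries at 1602 to 3264 CPM.

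Both large losses were of genes with at least 1000 CPM in Sham. ENSRNOG00000008536 ranged from 1564 to 5822 CPM in MI, with a median of 2814, and from 232 to 743 CPM with the microneedle patch, with a median of 421. All 6 patch libraries were below all 6 MI libraries. The log2 fold change was -2.84 (SE 0.33, edgeR adjusted p = 0.000114). In Sham ENSRNOG00000008536 ranged from 1879 to 14773 CPM, and with the sutured patch from 99.9 to 3612 CPM, so that these groups were far wider than the microneedle patch group.

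ENSRNOG00000025757 combined a large loss of reads with one of the steepest fold changes, the fourth steepest of all falls. It ranged from 711 to 3814 CPM in MI, with a median of 1407, and from 13.9 to 128 CPM with the microneedle patch, with a median of 40.8. The lowest MI library was thus well above the highest patch library. The log2 fold change was -5.05 (SE 0.55, edgeR adjusted p = 9.59e-05). Sham libraries held ENSRNOG00000025757 at 1761 to 12099 CPM and sutured patch libraries at 18.4 to 1508 CPM. Overlap of the 4 IDs with other genes, or near-identical copies that could split their reads, was not tested.

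**Figure D5:**
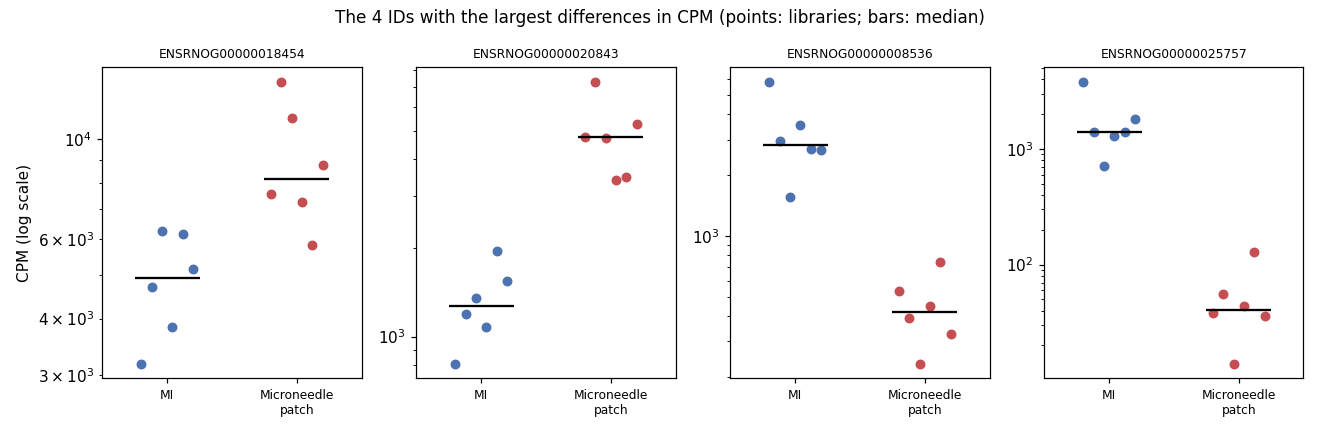
CPM (y axes, log scale) of the 4 IDs with the largest differences in mean CPM among called genes, in the groups MI and microneedle patch (x axes). Points are libraries, 6 a group, and bars are medians. The groups overlap for ENSRNOG00000018454 and are separate for the other three.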

How the data were processed

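The authors deposited a table of whole-number read counts for 32883 Ensembl gene IDs, 1 column per library, not normalized; HISAT2, featureCounts and rn6 are named in the submitters' processing notes. Not given in the sources used here are versions, annotation release, strand setting and multi-mapping rules. Columns were assigned by the code in each sample title. The 12 libraries of the MI and microneedle patch groups were filtered with filterByExpr of edgeR 4.0.16 (R 4.3.3, minimum count 10), which left 13934 genes with 99.9% of the counts. They were scaled by TMM and tested with a robust quasi-likelihood F test on 2 group means. A gene was called at a Benjamini-Hochberg adjusted p below 0.05; a standard error is the size of the log2 fold change over the root of F. Shares of counts use library totals and exact two-sided permutation tests. Floors of 3 counts cover counting error only, because PCR copies were not marked. Over 30 pairs of libraries within groups, chi-square per degree of freedom was 15.4 or more, so all 12 libraries were kept as separate. Printed IDs are, by rule, 2 called genes up and 2 down, by largest difference in mean CPM. Levels in Sham use TMM over 24 libraries. No batch is labelled. Comparison, classes and lists were chosen with earlier results of these data known; 0 of 46 gene lists could be run without symbols. The test was tested on simulated data in which both groups had the same spread, unlike the real groups. That run cannot show how unequal spread affected the calls. Alternatives used DESeq2 1.42.0 and limma 3.58.1.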

Additional observations from a re-analysis of the deposited data

Results flagged for a closer look

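In 62 sets of 6 values, 3 held a library far from the other 5 (Dixon's test); chance alone gives about 1 in 20. The share of counts held by genes under 1 CPM was 0.157% in MI replicate 1, and the next MI library had 0.136%. ENSRNOG00000025757 stood at 3814 CPM in MI replicate 1, where the next MI library had 1804 CPM. It stood at 128 CPM in microneedle patch replicate 5, where the next library of that group had 55.8 CPM. The log2 fold change of ENSRNOG00000025757 was between -5.54 and -4.66 with any 1 library left out.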

How the results depend on the processing

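No gene called here was called in the opposite direction under any alternative run. The fit of all 24 libraries called 1035 genes higher and 1077 lower. By class of the 12 libraries it called 37 higher and 54 lower under 1 CPM, 169 and 306 from 1 to 10, 589 and 535 from 10 to 100, 233 and 171 from 100 to 1000, and 7 higher above. By Sham level it called 15 lower under 1 CPM, 213 higher and 177 lower from 1 to 10, 562 and 506 from 10 to 100, 119 and 337 from 100 to 1000, and 2 higher and 42 lower above.

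Without a filter beyond 1 count, 147 genes under 1 CPM were higher and 173 lower, and by Sham level 304 and 113. With a minimum count of 50, which tests fewer genes, the class from 1 to 10 CPM had 245 higher and 328 lower, the Sham class under 1 CPM had 57 and 7, and that from 1 to 10 CPM had 175 lower. DESeq2 called 13 genes of at least 1000 CPM in Sham higher. DESeq2 size factors, limma-voom with weights per group and thinning to the smallest library total moved no count by over 1.5 times, but with limma-voom more genes were lower (2506) than higher (2406).

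Classing by the Sham level in place of the mean of the 12 libraries gave 195 genes higher under 1 CPM, 375 lower from 1 to 10 CPM, 586 lower from 100 to 1000 CPM, and 8 higher and 50 lower above. Under it the difference in share turned to 0.166 percentage points under 1 CPM, 0.488 from 1 to 10 CPM and -1.93 at 1000 CPM or more. With the Sham level taken without Sham replicates 4 and 5, 5 genes at its top were higher and the share from 1 to 10 CPM no longer passed (0.458, exact permutation adjusted p = 0.083). Without microneedle patch replicates 3, 4 and 5 the calls were 3952 higher and 4166 lower, with 16 higher at the top Sham level. Without replicates 1, 2 and 6 they were 1427 higher, with 5 at that level.

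With each library left out in turn, calls ranged from 1778 to 3099 higher and 1633 to 2653 lower. Under 1 CPM they ranged from 15 to 32 higher (29 or more without MI replicate 2, 3, 4 or 6 or microneedle patch replicate 5) and 21 to 54 lower (46 or more without MI replicate 3 or microneedle patch replicates 1 to 5); more genes are tested there with 5 libraries in a group. By Sham level the ranges were 24 to 57 lower under 1 CPM, 221 to 438 higher from 100 to 1000 CPM and 6 to 13 higher above. The differences in share ranged from -0.177 to -0.107 percentage points for 1 to 10 CPM, from 0.405 to 0.568 for 1 to 10 CPM in Sham and from 0.874 to 1.49 for 10 to 100 CPM in Sham.

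The groups share replicate numbers, which the labels do not say mark a pairing. Deviations of libraries with the same number correlated at 0.0512 to 0.18, and 5 of 12 libraries correlated best with their own number. With the replicate block 2160 genes were higher and 2323 lower. Standard errors were largest under 10 CPM, where libraries of 1 group also varied most; from 1 to 10 CPM, thinning left 427 genes higher and 601 lower.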

Other observations

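Libraries differed in how many of the called genes they carried beyond the whole range of the other group. These values describe genes chosen in the same libraries. Among the 2496 genes called higher, microneedle patch replicates 2 and 6 were above every MI library in 95.1% and 94.8%, and replicates 4 and 5 in 73.1% and 62.5%. Among the 2097 genes called lower the microneedle patch libraries were closer together, from 78.2% in replicate 5 to 91.5% in replicate 6. On the side of the untreated infarct, replicate 3 was the closest to the patch group in both directions. It was below every patch library in 63.3% of the genes called higher and above every one in 71.6% of those called lower, whereas MI replicate 1 reached 88.9% and 96.0%.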
